A study of Mus musculus with 12 samples.

Results

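The miR-34 family was followed in LLC1 cells, a cultured line of mouse Lewis lung carcinoma, after ionizing radiation. Its members were taken by the names on the array: mmu-miR-34a-5p, mmu-miR-34b-5p, mmu-miR-34b-3p, mmu-miR-34c-5p and mmu-miR-34c-3p, where mmu stands for mouse and is left out below. They made up 5 of the 576 entries of the array and were read by 10 of its 1712 probes. Each of the 4 groups had 3 arrays, with 1 array per sample, and the labels call the samples of a group biological replicates. Control cells were untreated, the 2 Gy and 10 Gy groups received a single dose, and the 5x2 Gy group received 5 fractions of 2 Gy. RNA was taken 4 h after irradiation, and all groups were cells of this 1 line with no other agent named.

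A microRNA (miRNA) is cut from a hairpin, and each hairpin can give a mature miRNA from its 5p arm and another from its 3p arm. The mature miRNA pairs with target mRNAs mainly through its seed, the bases 2 to 8 from the 5′ end, and represses them. The miR-34 family is known as a direct transcriptional target of p53, the tumour suppressor that is activated by DNA damage, and its targets include cell cycle genes. MiR-34a has a gene of its own, whereas miR-34b and miR-34c are made from 1 shared primary transcript.

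The sequences are shown because the 5p and 3p arms carry different seeds and because the 3p arms resemble each other. The names of 4 of the 5 members were matched to RefSeq (GRCm38.p6); the unmatched name was miR-34c-5p. Capitals mark the seed.
miR-34a-5p: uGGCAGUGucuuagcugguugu
miR-34b-5p: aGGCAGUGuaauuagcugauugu
miR-34b-3p: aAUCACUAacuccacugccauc
miR-34c-3p: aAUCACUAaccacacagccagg
In GRCm38.p6, miR-34a-5p lies at chr4:150068473-150068494 on the plus strand. MiR-34b-5p lies at chr9:51103610-51103632, miR-34b-3p at chr9:51103574-51103595 and miR-34c-3p at chr9:51103044-51103065, all 3 on the minus strand. No other annotated gene starts and ends between Mir34b and Mir34c, and both overlap the genes Hoatz and Btg4. Among 1738 mature mouse miRNAs of RefSeq, the seed GGCAGUG was found in 4, namely miR-34a-5p, miR-34b-5p, miR-449a-5p and miR-449c-5p; the unmatched miR-34c-5p was not part of this search. The seed AUCACUA was found in 2, miR-34b-3p and miR-34c-3p. These 3p arms are identical at 17 of 22 positions, and whether the probes of 1 arm also read the other was not tested. Whether the probes of miR-34b-5p and miR-34c-5p also read each other's target was not tested either. Their results may therefore not be independent readings.

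The arrays differed in brightness, and slides were shared between groups. Brightness is given here as the 75th percentile of signal over the 78 probes detected on all arrays, the value each array was divided by. It was 110.5 to 703 in control, 316 to 897 after 2 Gy, 307 to 867 after 10 Gy and 1004 to 1102 in the 5x2 Gy group, so the 5x2 Gy arrays were the brightest. Slide 1 held the 3 control arrays, the 3 arrays of 2 Gy and 2 of the 10 Gy arrays (replicates 1 and 2). Slide 2 held the remaining 10 Gy array (replicate 3) with the 3 arrays of 5x2 Gy, and no control array. Of the 8 epithelial and carcinoma markers, miR-31-5p and miR-21a-5p were detected on all 12 arrays and the miR-200 family and miR-205-5p on none. The fibroblast and endothelial markers miR-199a-3p and miR-214-3p were also detected on all arrays.

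Of the members, miR-34b-5p and miR-34c-5p were detected on all 12 arrays, miR-34b-3p and miR-34c-3p on the 3 arrays of 5x2 Gy only, and miR-34a-5p on none. MiR-34a-5p was thus not tested, while the other 4 members were among the 118 miRNAs tested. The 3p arms passed that filter only through the 5x2 Gy arrays. Levels are given as log2 of signal relative to that 75th percentile, and changes as differences of such levels between group means. Levels of different miRNAs come from different probes and are not set against each other.

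MiR-34b-5p was lowest in control cells and highest after 5x2 Gy. Its level was -1.71, -1.65 and -1.87 on the control arrays. It was -1.0, -1.56 and -1.02 after 2 Gy and -0.92, -0.79 and -0.95 after 10 Gy. It was -0.55, -0.55 and -0.49 after 5x2 Gy. No 2 groups overlapped: every 2 Gy array lay above every control array, every 10 Gy array above every 2 Gy array, and every 5x2 Gy array above every 10 Gy array. The 2 Gy group was the widest because replicate 2, at -1.56, lay close to the control arrays. Of the 118 miRNAs tested, 1 was separated in this rising order of the 4 groups (0.847%), and it was miR-34b-5p; 0 were separated in the falling order. The group means were -1.74 ± 0.11 in control, -1.19 ± 0.31 after 2 Gy, -0.89 ± 0.09 after 10 Gy and -0.53 ± 0.03 in the 5x2 Gy group (SD, n = 3).

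**Figure D1:**
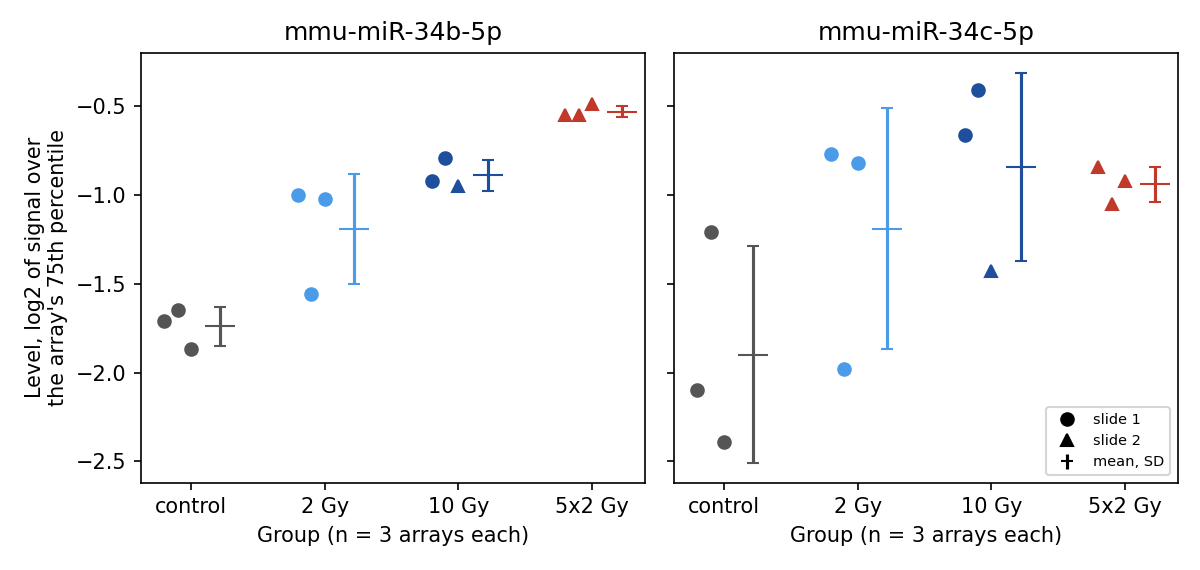
Levels of miR-34b-5p (left) and miR-34c-5p (right) on each of the 12 arrays, as log2 of the signal over the array's 75th percentile, with the mean and SD (n = 3) beside the points of each group; circles are arrays of slide 1 and triangles arrays of slide 2. The groups of miR-34b-5p do not overlap, from control at -1.74 to 5x2 Gy at -0.53, whereas those of miR-34c-5p overlap except for 5x2 Gy and control. These 2 groups do not overlap, with 5x2 Gy higher, for 28% of the 118 miRNAs tested.

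**Figure D2:**
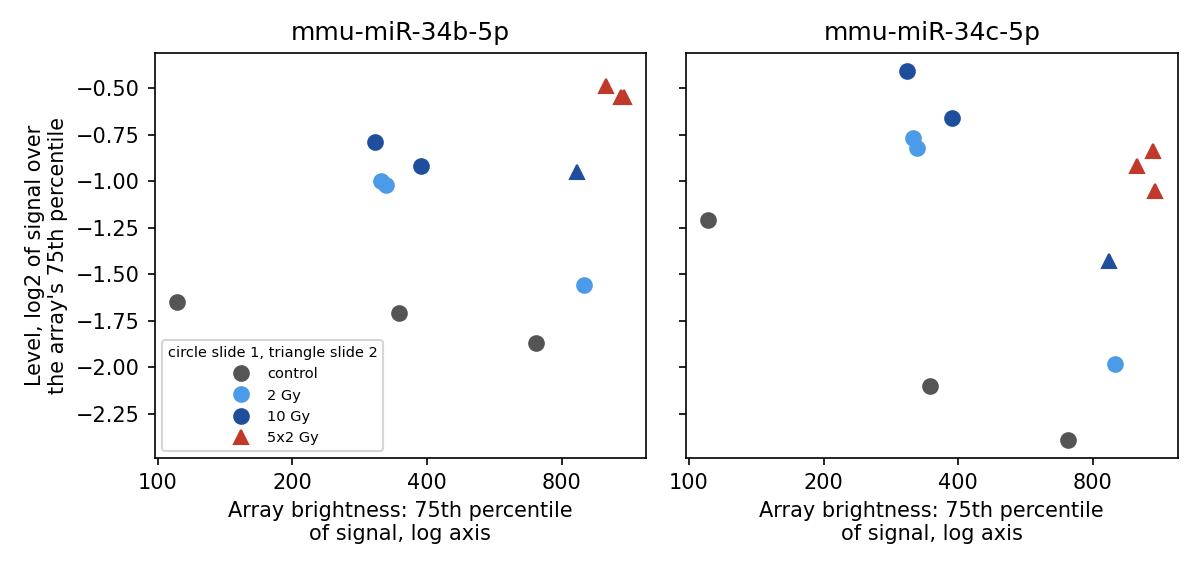
Levels of miR-34b-5p (left) and miR-34c-5p (right) against the brightness of the array on a log axis, with 1 point per array, coloured by group, circles for slide 1 and triangles for slide 2. Within each group other than 5x2 Gy, the brightest array has the lowest level of both miRNAs.

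The comparisons with control share the control arrays and so are not independent, and in bulk RNA a change in the number of cells of a type cannot be told apart from a change in RNA per cell. After 2 Gy miR-34b-5p differed from control by 0.55 (95% interval 0.23 to 0.86, 1.46-fold) and did not pass limma's test (adjusted p = 0.142). Limma called 0 of the 118 miRNAs in this comparison (0%), against 11 at an unadjusted p of at most 0.05. Groups did not overlap, with 2 Gy higher, for 4.24% of the miRNAs. The change was the second highest of the 118 miRNAs. It passed in 1 of 18 other settings, with brightness added to the model as a covariate (0.63, limma adjusted p = 0.018). Of the 12 fits with an array left out it passed in 1, without 2 Gy replicate 2 (0.73, limma adjusted p = 0.00118).

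After 10 Gy miR-34b-5p rose by 0.85 (95% interval 0.54 to 1.17, 1.81-fold, limma adjusted p = 0.0239). It was the 1 miRNA called in this comparison (0.847% of 118), and groups did not overlap, with 10 Gy higher, for 8.47%. The adjusted p stood near the threshold. The call ended without control replicate 1 (0.87, limma adjusted p = 0.086) and without 10 Gy replicate 2 (0.80, limma adjusted p = 0.0582) or replicate 3 (0.89, limma adjusted p = 0.0921). It also ended without any 1 of 5x2 Gy replicates 1, 2 and 3 (0.85 each time, limma adjusted p 0.0621 to 0.0667). These arrays belong to neither group compared but enter the estimate of the spread. Without replicate 1 or replicate 3 the number of miRNAs tested changed as well. What ended the call in these fits was not tested. With slide as a block the change was 0.89 (limma adjusted p = 0.0879), and within slide 1, where 10 Gy has 2 arrays, it was 0.89 (limma adjusted p = 0.358).

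After 5x2 Gy miR-34b-5p rose by 1.21 (95% interval 0.90 to 1.53, 2.32-fold, limma adjusted p = 0.000888). This was the highest change of the 118 miRNAs, of which 15 were called, all higher (12.7%). Groups did not overlap, with 5x2 Gy higher, for 28%. The change was 1.15 to 1.26 with each array left out in turn and passed each time. With slide as a block it was 1.31 and did not pass (limma adjusted p = 0.0748); in that fit the groups are linked across slides only through the 10 Gy arrays. Normexp background correction gave 0.68 (limma adjusted p = 0.0718).

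The 2 groups given 10 Gy in total were set against each other, fractions against a single dose. Fractionation and the time since the first dose cannot be told apart in this or the other comparisons of 5x2 Gy. MiR-34b-5p was at -0.95 on the 10 Gy array that shared slide 2 with 5x2 Gy, below all 3 arrays of the latter. The difference, 5x2 Gy minus 10 Gy, was 0.36 (95% interval 0.045 to 0.67, 1.28-fold) and did not pass (limma adjusted p = 0.258); 3 of 118 miRNAs were called (2.54%). Groups did not overlap, with 5x2 Gy higher, for 25.4%, so the separation of miR-34b-5p in this comparison was shared by many miRNAs. Within slide 2 the difference was 0.42 (limma adjusted p = 0.0435, with 9 miRNAs called), but that fit has 1 array of 10 Gy, which is assumed to vary like the 5x2 Gy arrays, so it rests on no spread within 10 Gy. In the fit to both slides the difference passed without 2 Gy replicate 2, an array of neither group (0.36, limma adjusted p = 0.0158, with 10 miRNAs called). The count called in this comparison was 90 with scaling over all probes, 24 without scaling and 0 on the authors' deposited values.

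Between the single doses, 10 Gy minus 2 Gy, miR-34b-5p differed by 0.31 (95% interval -0.0072 to 0.62, limma adjusted p = 1), and by 0.13 without 2 Gy replicate 2 (limma adjusted p = 1). Limma called 0 of 118 there (0%), against 2 at an unadjusted p of at most 0.05, and groups did not overlap, with 10 Gy higher, for 4.24%. Between 5 fractions and 1 dose of 2 Gy it rose by 0.67 (95% interval 0.35 to 0.98, 1.59-fold, limma adjusted p = 0.0259), as 1 of 5 miRNAs called (4.24%), a count that was 109 when all probes set the scaling and 26 without scaling; groups did not overlap, with 5x2 Gy higher, for 24.6%. That call ended without 10 Gy replicate 1 (0.67, limma adjusted p = 0.0551). It ended too without 5x2 Gy replicate 1 (0.67, limma adjusted p = 0.0764), replicate 2 (0.67, limma adjusted p = 0.0785) or replicate 3 (0.65, limma adjusted p = 0.0726).

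Over the single doses of 0, 2 and 10 Gy, the level of miR-34b-5p increased by 0.072 per Gy (SE 0.013). The slope just missed the threshold (limma adjusted p = 0.053); limma called 0 of 118 slopes (0%), against 15 at an unadjusted p of at most 0.05. It passed without control replicate 2 (0.075, limma adjusted p = 0.0474). It passed too without 2 Gy replicate 1 (0.075, limma adjusted p = 0.0361), replicate 2 (0.065, limma adjusted p = 0.000868) or replicate 3 (0.075, limma adjusted p = 0.0456). These were 4 of 12 fits with an array left out, where the limma adjusted p reached 0.202 without 10 Gy replicate 3. Of 18 other settings the slope passed in 4. Those where it did not include slide as a block (0.075, limma adjusted p = 0.194), within slide 1 (0.075, limma adjusted p = 0.538) and scaling over all probes (0.12, limma adjusted p = 0.559). Over all 4 groups together miR-34b-5p differed (limma F = 27.9, adjusted p = 0.00586), as 1 of 7 miRNAs called by the F test (5.93%).

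The rise was read by both probes of miR-34b-5p. These share a target, so they are not replicates. On the scaled signal, probe A_54_P2445 changed against control by 0.52 after 2 Gy, by 0.83 after 10 Gy and by 1.27 in the 5x2 Gy group, and probe A_54_P2446 by 0.57, 0.88 and 1.16. After 10 Gy both probes passed among the 181 probes tested (limma adjusted p = 0.0125 and 0.0214; 1.66% called), and so they did after 5x2 Gy (limma adjusted p = 0.000361 and 0.0038; 8.84% called). The slope over single doses passed for the former (0.07 per Gy, limma adjusted p = 0.0291; 0.552% called) and not for the latter (0.073 per Gy, limma adjusted p = 0.0759). On probe A_54_P2446 the level of 2 Gy replicate 2, at -1.21, lay just below that of control replicate 2, at -1.19, and 10 Gy replicate 3, at -0.65, lay just below 2 Gy replicates 1 and 3, at -0.61 and -0.62. Neither the separation of control and 2 Gy nor that of 2 Gy and 10 Gy therefore held on this probe. Of the spots read for miR-34b-5p, 226 of 232 were well above background, with 51 of 57 in control and all spots in the irradiated groups. The coefficient of variation among the spots of a probe on an array was 5.06 to 19.2%, with a median of 11.55%.

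MiR-34c-5p, from the same transcript, had higher mean levels in each irradiated group but a wide spread. Its level was -2.10, -1.21 and -2.39 on the control arrays and -0.77, -1.98 and -0.82 after 2 Gy. It was -0.66, -0.41 and -1.43 after 10 Gy and -0.84, -1.05 and -0.92 after 5x2 Gy. The control group overlapped 2 Gy and 10 Gy because control replicate 2, the dimmest array, was high and because 2 Gy replicate 2 and 10 Gy replicate 3, the brightest of their groups, were low. The means were -1.90 ± 0.61, -1.19 ± 0.68, -0.84 ± 0.53 and -0.94 ± 0.10 (SD, n = 3) in the order control, 2 Gy, 10 Gy and 5x2 Gy. Against control the level differed by 0.71 after 2 Gy (95% interval -0.25 to 1.68, limma adjusted p = 0.611) and by 1.06 after 10 Gy (95% interval 0.098 to 2.03, limma adjusted p = 0.236). Control and 5x2 Gy did not overlap, with 5x2 Gy higher, for 28% of the 118 miRNAs, miR-34c-5p among them. Its change after 5x2 Gy was 0.96 (95% interval -0.0027 to 1.93, limma adjusted p = 0.161). None of these passed, although the changes after 2 Gy and 10 Gy were the highest of the 118 miRNAs; the standard error was 0.423, against 0.137 for miR-34b-5p. Neither the slope over single doses (0.089 per Gy, SE 0.04, limma adjusted p = 0.392) nor the F test over the 4 groups (limma adjusted p = 0.352) passed.

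Array brightness moved with miR-34c-5p inside the groups. Taking each array as its deviation from its group mean, the level and log2 brightness had a Pearson correlation of -0.96 for miR-34c-5p and -0.75 for miR-34b-5p over the 12 arrays. These are descriptions, since the level is itself divided by the brightness. Among arrays of 307 to 388, miR-34c-5p stood at -2.10 on the control array, at -0.77 and -0.82 after 2 Gy, and at -0.66 and -0.41 after 10 Gy. Among arrays of 703 to 1102, it stood at -2.39 in control, at -1.98 after 2 Gy, at -1.43 after 10 Gy and at -1.05 to -0.84 in the 5x2 Gy group. Control replicate 2, at a brightness of 110.5 and a level of -1.21, was in neither set. It lay above 2 Gy replicate 2, at -1.98, and 10 Gy replicate 3, at -1.43. In both sets control, with 1 array each, was lowest and 10 Gy above 2 Gy, as a description over 1 or 2 arrays a group. No array of another group reached the brightness of the 5x2 Gy arrays, so their place in this order is not at like brightness. With brightness as a covariate the changes of miR-34c-5p against control were 1.05, 1.44 and 2.01 after 2 Gy, 10 Gy and 5x2 Gy, and all 3 passed (limma adjusted p = 0.00797, 0.000978 and 0.000308). In that fit 6, 26 and 28 of 118 miRNAs were called, and the 5x2 Gy value reaches beyond the brightness of any control array.

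Between the groups given 10 Gy in total, miR-34c-5p differed by -0.10 (5x2 Gy minus 10 Gy, 95% interval -1.07 to 0.87, limma adjusted p = 1). The direction was not stable. Within slide 2 the difference was 0.50 (limma adjusted p = 0.2), and with brightness as a covariate it was 0.58 (limma adjusted p = 0.0851). Without 10 Gy replicate 2 it was 0.11. The differences between 10 Gy and 2 Gy (0.35, 95% interval -0.62 to 1.32) and between 5x2 Gy and 2 Gy (0.25, 95% interval -0.72 to 1.22) did not pass either (limma adjusted p = 1 and 0.974), and both turned without 2 Gy replicate 2 (-0.044 and -0.14). Both probes of miR-34c-5p gave like changes. Probe A_54_P1247 changed by 0.69, 1.02 and 0.89 against control in the order of dose and fractions, and probe A_54_P1248 by 0.74, 1.10 and 1.03, with no value past the threshold. All 230 spots read were well above background, with a median coefficient of variation of 9.17%.

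The level of entries with high array background was followed beside these results. A list of 9 miRNAs often tied to background or to fragments of other RNA, which include miR-690, miR-709 and miR-494-3p, had 6 tested members. All 6 were negative against control in each irradiated group, with medians of -0.75, -0.87 and -0.61 after 2 Gy, 10 Gy and 5x2 Gy; 0 of 6 were called by limma. The medians of all tested miRNAs were 0, 0 and 0.0004. Entries at the floor on all arrays compared enter these medians as a change of 0. Of the 118 tested miRNAs, 48 were detected on all arrays. The list's mean level was -1.75 to 0.063 on control arrays and -2.03 to -1.10 on irradiated arrays, with control replicate 1 the highest. With that mean as a covariate, miR-34b-5p changed by 0.41 after 2 Gy (limma adjusted p = 0.195), by 0.69 after 10 Gy (limma adjusted p = 0.0762) and by 1.10 after 5x2 Gy (limma adjusted p = 0.00287). MiR-34c-5p changed by 0.12, 0.34 and 0.47 in the same fit (limma adjusted p = 1, 0.696 and 0.323).

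The scaling set the size of the changes after 5x2 Gy, whose arrays were the brightest. Without any scaling miR-34b-5p was 3.01 higher after 5x2 Gy than in control (limma adjusted p = 0.0059) and miR-34c-5p 2.79 higher (limma adjusted p = 0.00112). Leaving out the scaling raised this change for the miRNAs above the floor by 1.75 in the median, and 86 of 118 miRNAs were called. Scaling over all probes gave 2.85 for miR-34b-5p (limma adjusted p = 0.000914) and 2.60 for miR-34c-5p (limma adjusted p = 3.48e-05); it raised the change of the miRNAs above the floor by 1.64 in the median, and 102 were called. The authors' deposited log2 values gave 2.66 for miR-34b-5p (limma adjusted p = 0.00516) and 2.41 for miR-34c-5p (limma adjusted p = 0.00173), with 84 called. A call in these fits was thus shared by most of the miRNAs. After 10 Gy the change of miR-34b-5p was 1.47 without scaling (limma adjusted p = 0.971), 1.35 with all probes (limma adjusted p = 0.396), 1.36 on the authors' deposited scale (limma adjusted p = 0.631) and 0.45 with normexp (limma adjusted p = 0.474), and none of these passed. In each of these settings both miRNAs were also higher than control after a single dose of 2 Gy or 10 Gy.

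**Figure D3:**
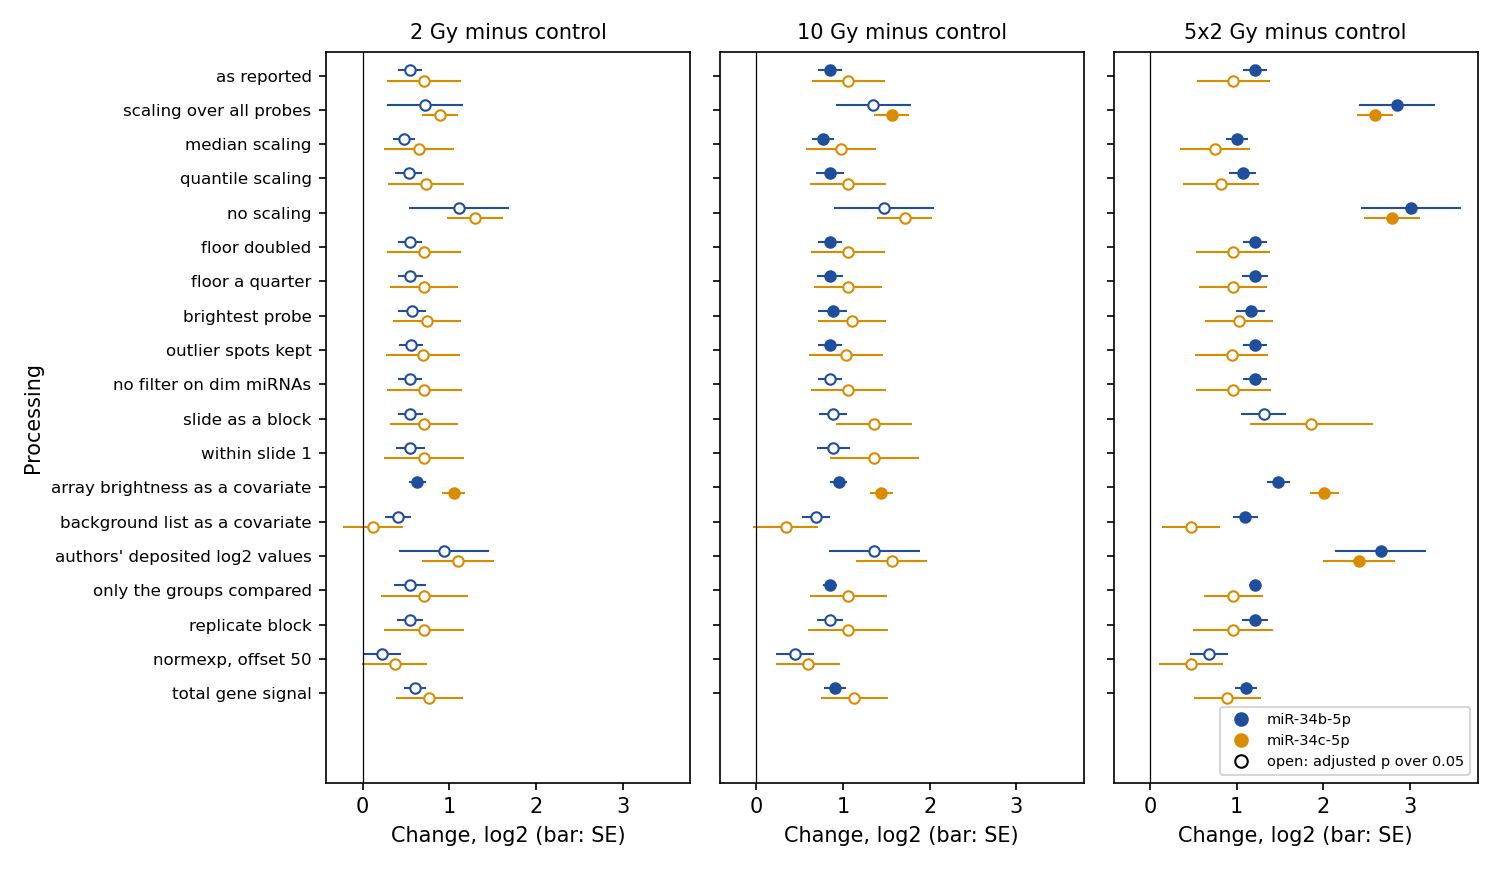
Changes of miR-34b-5p (blue) and miR-34c-5p (orange) against control on the log2 scale under each way of processing the arrays, with bars for 1 SE; filled points have an adjusted p of at most 0.05. All values lie above 0, from 0.12 for miR-34c-5p after 2 Gy with the background list as a covariate to 3.01 for miR-34b-5p after 5x2 Gy without scaling.

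The 3p arms gave signal well above background on the 5x2 Gy arrays. The processed signal, before scaling, of probe A_54_P2451 of miR-34b-3p was -2.12, -2.05 and 4.76 in control and -0.528, 10.9 and 5.06 after 2 Gy. It was 9.56, 5.08 and 17.8 after 10 Gy and 52.2, 40.5 and 44.7 after 5x2 Gy. The 5x2 Gy arrays stood above all others, and 28 of their 28 spots were well above background, against 2 of 30 after 10 Gy, 0 of 27 after 2 Gy and 0 of 30 in control.
The pattern was like that of miR-34c-3p. On its probe A_54_P4417 the processed signal was -4.61, -7.89 and 3.31 in control, 0.192, 8.42 and 5.81 after 2 Gy and 4.51, 9.78 and 22.1 after 10 Gy. It was 46.9, 41.7 and 39.5 after 5x2 Gy, where 30 of 30 spots were well above background, against 4 of 28 after 10 Gy. The spots of the 10 Gy group that were well above background were all on replicate 3, the array that shares slide 2 with 5x2 Gy. The second probe of miR-34b-3p reached 23.8 after 5x2 Gy, with 5 of 30 spots well above background, and that of miR-34c-3p reached 12.2, with 0 of 30.

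These signals rested on dim probes and bright arrays. After scaling, both 3p arms lay at or below the floor of 0.0598 (log2 -4.06) on all 12 arrays, so the scaled levels hold no difference between groups. The mean scaled level after 5x2 Gy, before the floor, was -4.55 for miR-34b-3p and -4.64 for miR-34c-3p. Both lie below -3.37, the mean over the control arrays of the dimmest level detected on each. No fold is therefore given, and the data do not show a rise past that mean limit. The mean includes control replicate 2, at a brightness of 110.5, and need not be the limit of the brighter control arrays. Of the bright arrays outside 5x2 Gy, none met the rule for detection: control replicate 3, at 703, and 2 Gy replicate 2, at 897, had 0 spots well above background for the 3p arms, and 10 Gy replicate 3, at 867, had 2 of 10 and 4 of 9 on the brighter probes. The fitted difference depended on the setting, was fixed in part by the choice of arms detected after 5x2 Gy, and is no test of a rise. For miR-34b-3p, 5x2 Gy minus control was 0 with median scaling, quantile scaling, slide as a block or a doubled floor, and -0.83 with normexp. It was 1.52 with the floor at 0.25 of its value, 0.67 without scaling and 0.76 with scaling over all probes. Total gene signal gave 1.44 and the authors' deposited values 4.16. For miR-34c-3p it was 0 in the same 4 settings and -0.76 with normexp. The settings with a positive value gave 1.42, 0.58, 0.66, 0.84 and 4.53 in the same order. For each arm these 5 of 17 settings passed limma's threshold, which is no test of a rise for the reason given above. The scanner software's own flag called both arms detected on 10 Gy replicate 3 and on all 5x2 Gy arrays, and on no control or 2 Gy array. Since no control array lies on slide 2, slide and group cannot be told apart for the detection of the 3p arms.

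**Figure D4:**
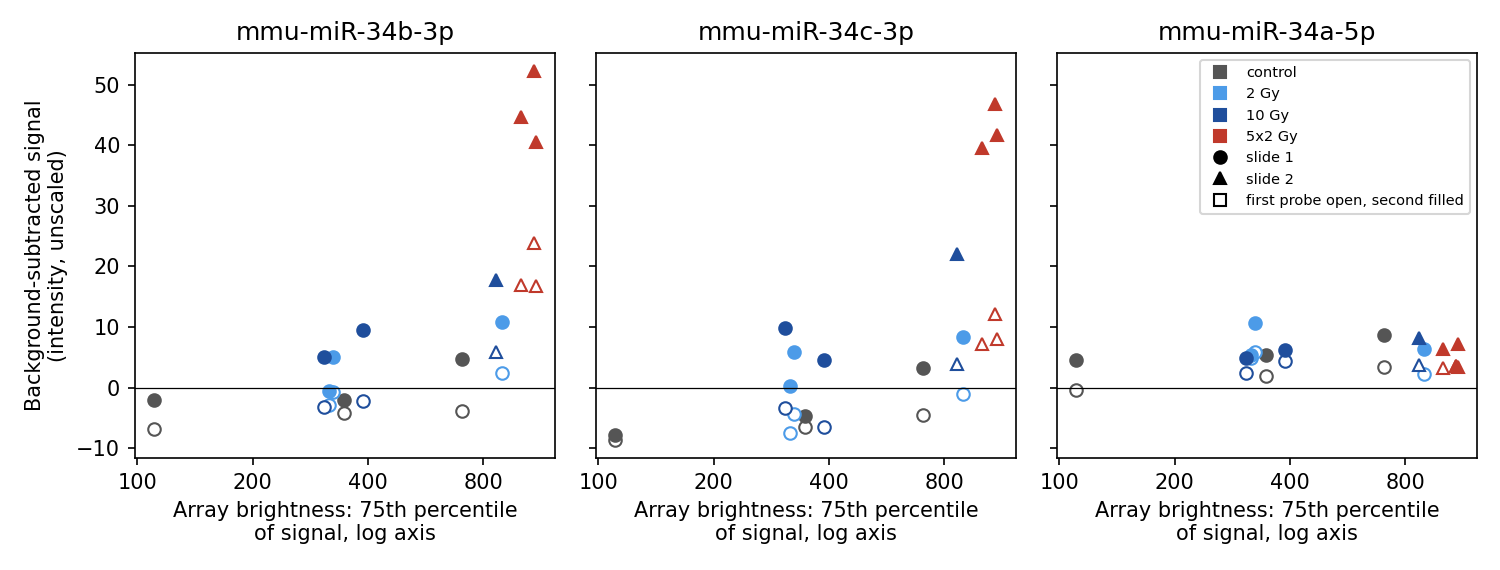
Processed signal before scaling of the probes of miR-34b-3p, miR-34c-3p and miR-34a-5p against array brightness on a log axis, with 1 point per probe and array, open for the first probe and filled for the second, circles for slide 1 and triangles for slide 2. The filled points of both 3p arms reach 39.5 to 52.2 on the 5x2 Gy arrays, and miR-34a-5p stays at or below 10.6 on all arrays.

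MiR-34a-5p, the family member with its own gene, was not well above background in any group. Its processed signal was -0.425 to 10.6 over both probes and all arrays, with 0 of 235 spots well above background. On the brighter of the probes, A_54_P2499, the signal was 4.53 to 8.64 in control, 5.42 to 10.6 after 2 Gy, 4.94 to 8.19 after 10 Gy and 3.58 to 7.13 in the 5x2 Gy group, so the groups overlapped. The highest value was on a 2 Gy array and not on the bright arrays of 5x2 Gy. A change of miR-34a-5p was not detectable on these arrays.
The miR-449 family, which carries the same seed in miR-449a-5p and miR-449c-5p, was not well above background either. The entries miR-449a-5p, miR-449b and miR-449c-5p had signals of at most 11, 9.33 and 7.47, with 0 of 231, 0 of 235 and 0 of 237 spots well above background.

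Of other miRNAs known to respond to p53, 1 was called in the comparisons with control. Of 15 listed, 12 were on the array and 6 were tested: miR-107-3p, miR-143-3p, miR-149-5p, miR-15a-5p, miR-16-5p and miR-22-3p. Limma called 0 of 6 after 2 Gy, 0 of 6 after 10 Gy and 1 of 6 in the 5x2 Gy group, where 12.7% of all tested miRNAs were called. The median change was -0.023 after 2 Gy, -0.068 after 10 Gy and 0.19 in the 5x2 Gy group. The member called was miR-107-3p, which is made from an intron of a pantothenate kinase gene. It was 0.20 higher after 5x2 Gy (SE 0.0315, limma adjusted p = 0.00623). That call ended without 5x2 Gy replicate 1 (0.16), 2 (0.17) or 3 (0.17), with limma adjusted p of 0.0773, 0.0685 and 0.0643, and the change turned with normexp (-0.59, limma adjusted p = 0.0993). It also ended with median scaling (0.022, limma adjusted p = 0.888), slide as a block (0.22, limma adjusted p = 0.254), the floor at 0.25 of its value (0.24, limma adjusted p = 0.0724) and total gene signal (0.37, limma adjusted p = 0.201). The other 5 changes after 5x2 Gy did not pass: 0.69 for miR-22-3p, 0.31 for miR-16-5p, 0.17 for miR-143-3p, 0.041 for miR-15a-5p and -0.15 for miR-149-5p.

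The miRNAs whose levels followed miR-34b-5p most closely over the 12 arrays were searched among 47 others detected on every array. The highest Pearson correlations were 0.86 for miR-214-3p, 0.82 for let-7c-5p, 0.81 for miR-199a-3p, 0.79 for miR-34c-5p and 0.78 for miR-125b-5p. All levels of an array share its RNA sample and its scaling, so these values are descriptions without a test. Without the 2 arrays farthest from the median of miR-34b-5p they were 0.89, 0.76, 0.64, 0.57 and 0.66 in the same order. With group means taken out they were 0.51, 0.58, 0.73, 0.84 and 0.78. The changes of these miRNAs after 5x2 Gy against control were smaller than that of miR-34b-5p, at 0.46 for miR-214-3p (limma adjusted p = 0.0407), 0.22 for let-7c-5p (limma adjusted p = 0.0379), 0.35 for miR-199a-3p (limma adjusted p = 0.114) and 0.42 for miR-125b-5p (limma adjusted p = 0.147). They were picked by their likeness to miR-34b-5p on the same arrays, so these changes are fixed in part by that choice. Of all tested miRNAs 12.7% were called in this comparison.
MiR-214-3p and miR-199a-3p stand on the list of fibroblast and endothelial markers. Of its 5 entries 4 were detected, and miR-145a-5p was not. Their summed level, as a multiple of the array's 75th percentile, was 1.32 to 1.64 in control, 1.48 to 1.84 after 2 Gy, 1.69 to 1.92 after 10 Gy and 1.78 to 1.85 in the 5x2 Gy group. Its part in the result for miR-34b-5p was not tested. The summed level of the 2 detected blood cell markers, miR-142a-3p and miR-142a-5p, overlapped between the groups, at 0.483 to 0.745 in control and 0.468 to 0.636 after 5x2 Gy.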

How the data were processed

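Per the submitters' processing notes, the arrays were read with Agilent Feature Extraction 10.7.3.1. The deposited values per spot are linear intensity, with background already subtracted in the processed signal, per the file headers. A second file deposited by the authors gives log2 values, which matched log2 of the processed signal (signals under 1 raised to 1) plus a constant for each array (-0.27 to 0.51). Deposited flags served as filters. Control and outlier spots were left out and spots of a probe averaged. A probe counted as detected where the well-above-background flag was set on more than 0.5 of its spots. Each array was scaled to the 75th percentile of the 78 probes that all 12 arrays detected, values were raised to a floor of 0.0598, and log2 was taken. Probes of a miRNA were averaged where detected on at least 3 arrays. Tested were the 118 of 576 entries detected on all 3 arrays of a group. Limma 3.58.1 (R 4.3.3, version 1.17.8 of data.table) was fitted to all 12 arrays, with 8 residual and 0.45 prior degrees of freedom, no covariates, two-sided tests and Benjamini-Hochberg adjustment at 0.05 over all tested entries. Code was tested on simulated data. Each member is named, with the 5 miRNAs most correlated with miR-34b-5p and the tested p53-responsive list. The members and lists were chosen with earlier results of these data known. Sequences are from RefSeq (GRCm38.p6), and the headers name mm9 for the array design. The number of arrays limits the precision. The alternatives were other scalings, floors, filters, backgrounds, blocks and covariates, and each array left out.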

Additional observations from a re-analysis of the deposited data

How the results depend on the processing

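Changes are log2, with limma adjusted p in brackets. Against control, miR-34b-5p and miR-34c-5p stayed positive in all settings run. The call of miR-34b-5p after 10 Gy ended with scaling over all probes (1.35, 0.396), no scaling (1.47, 0.971), no filter on dim miRNAs (0.85, 0.166), slide as a block (0.89, 0.0879), within slide 1 (0.89, 0.358), the background list as a covariate (0.69, 0.0762), the authors' deposited log2 values (1.36, 0.631) and normexp (0.45, 0.474). After 5x2 Gy it ended with slide as a block (1.31, 0.0748) and normexp (0.68, 0.0718). In 5x2 Gy minus 2 Gy it ended with median scaling (0.51), quantile scaling (0.54), the brightest probe (0.58), no filter (0.67), slide as a block (0.76), the authors' values (1.72), only the groups compared (0.67), normexp (0.46) and total gene signal (0.50). Brightness as a covariate brought miR-34b-5p past the threshold after 2 Gy (0.63) and in 5x2 Gy minus 10 Gy (0.53, 0.0499), which also passed, with all probes (1.51, where 90 of 118 were called) and within slide 2 (0.42, with 1 array of 10 Gy). Its slope passed in 4 of 18 settings, with quantile scaling (0.072), the floor at 0.25 of its value (0.072), brightness (0.079) and total gene signal (0.076). MiR-34c-5p passed with all probes after 10 Gy (1.56), after 5x2 Gy (2.60), in 5x2 Gy minus 2 Gy (1.72) and in its slope (0.14), with no scaling after 5x2 Gy (2.79) and against 2 Gy (1.49), with the authors' values after 5x2 Gy (2.41), and with brightness in those 4 (1.44, 2.01, 0.96, 0.12) and after 2 Gy (1.05). Its difference 5x2 Gy minus 10 Gy turned with all probes (1.05, 0.00423) and no scaling (1.08, 0.0456), both past the threshold, and with slide as a block (0.50), within slide 2 (0.50), brightness (0.58), the background list (0.13) and the authors' values (0.85). MiR-107-3p after 5x2 Gy turned with normexp (-0.59) and lost its call with median scaling (0.022), slide as a block (0.22), the lower floor (0.24) and total gene signal (0.37). The causes were not tested, except that fewer arrays enter the fits within a slide.

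With each array left out in turn, miR-34b-5p ran from 0.45 to 0.73 after 2 Gy, 0.79 to 0.90 after 10 Gy (past the threshold in 6 of 12), 1.15 to 1.26 after 5x2 Gy, 0.33 to 0.41 in 5x2 Gy minus 10 Gy, 0.13 to 0.40 in 10 Gy minus 2 Gy, 0.48 to 0.76 in 5x2 Gy minus 2 Gy (8 of 12) and 0.065 to 0.075 per Gy in its slope (4 of 12). MiR-34c-5p ran from -0.40 to 0.11 in 5x2 Gy minus 10 Gy, -0.044 to 0.65 in 10 Gy minus 2 Gy and -0.14 to 0.46 in 5x2 Gy minus 2 Gy. Replicate numbers did not pair the arrays: of 18 same-number pairs 6 had a correlation of deviations over 0.1, and 1 of 12 arrays correlated best with its own number. With the replicate number as a block, the calls of miR-34b-5p after 10 Gy (0.85, 0.123) and in 5x2 Gy minus 2 Gy (0.67, 0.0768) ended, and 0, 0 and 10 miRNAs were called against control.

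The count of called miRNAs against control, 0, 1 and 15, ran over these settings from 0 to 6 after 2 Gy, 0 to 26 after 10 Gy (the latter with brightness) and 1 after 5x2 Gy with slide as a block to 102 with all probes. It was 0 to 90 in 5x2 Gy minus 10 Gy and 0 to 109 in 5x2 Gy minus 2 Gy; with an array left out it was 1 to 10 and 3 to 11. Normexp was planned on the mean spot signal, which the scanner output does not hold. It was run on the median signal, as chosen after seeing the data, as was the total gene signal. Dim probes limit the 3p arms and miR-34a-5p, and slide 2 has no control array.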
